A study of Mus musculus with 44 samples.

Results

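Metabotropic glutamate receptors were examined through 6 genes, Grm2, Grm3, Grm4, Grm5, Grm7 and Grm8. The rows were taken from each per-sample file by matching its RefSeq identifier to one of these symbols, which gave 6 of the 17158 transcripts listed in the series. The rule itself used no measured value. Metabotropic glutamate receptors are dimeric G-protein-coupled receptors of class C that bind synaptic glutamate in a large extracellular domain. Group I receptors, here Grm5, couple to Gq, activate phospholipase C and lie mainly around the postsynaptic density, where Homer proteins bind them. Group II receptors (Grm2 and Grm3) and group III receptors (Grm4, Grm7 and Grm8) couple to Gi/o, lower cyclic AMP and often restrain transmitter release from the presynaptic terminal, and Grm3 is also made by astrocytes.

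The study measured mRNA by RNA-seq, ribosome-protected fragments (RPFs, the stretches of mRNA covered by ribosomes) and poly(A)-tail length in mouse brain tissue and cultured cortical neurons. The tissues were embryonic hippocampus, adult hippocampus and adult cortex. The cultures came from cortices of newborn pups of both sexes. Those kept for 14 days in vitro (DIV14) were left unstimulated, stimulated with brain-derived neurotrophic factor (BDNF), stimulated with glutamate and glycine (glu/gly), or transduced with a lentivirus that expressed GFP alone, GFP with miR-1 or GFP with miR-155 from a synapsin promoter, which is active in neurons. Those kept for 10 days (DIV10) were left unstimulated or depolarised with KCl for 10 or 30 min. Visual cortex was taken from 4 mice kept in the dark and from 4 mice exposed to light for 1 h after the dark, and only its tails and tail tags were measured. No sample carried a labelled genetic change beyond the virus. For the cultures and tissues there was a single library of each assay, so these comparisons have no replicate check and no p-value is given for them. Their 95% intervals cover counting error only. Those of ratios are exact conditional Clopper-Pearson intervals, and those of levels are exact Poisson intervals. The reads carry no molecular identifiers, so duplicate reads were counted and the intervals can be too narrow.

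RNA-seq libraries held 448022 to 7689624 reads on genes, RPF libraries 2812215 to 23212489, and tail libraries 86841 to 4812273 tags. For RNA-seq, hippocampal RNA was selected by its poly(A) tail whereas adult cortex RNA was rid of rRNA, so tissue and library preparation cannot be told apart between them. Summed counts per 1000000 reads on genes (CPM) for 8 astrocyte markers were 756 in embryonic hippocampus, 3384 in adult hippocampus, 3812 in adult cortex and 2227 in the unstimulated DIV14 culture. For 8 markers of progenitors and newborn neurons the sum was 2608 in embryonic and 74 in adult hippocampus. In bulk samples such as these, fewer cells of a type and less RNA per cell cannot be told apart.

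The 6 genes are spread over 5 chromosomes of the mouse build GRCm38.p6, and in that RefSeq annotation each is a multi-exon coding gene. Grm5 lies at chr7:87584168-88135063 on the plus strand and has 11 exons. Its mRNA encodes 1203 residues and carries a 3′ UTR of 4194 nt, longer than that of 95% of genes. The group II genes have 6 exons each, Grm2 at chr9:106644534-106656109 and Grm3 at chr5:9485236-9725352, both on the minus strand, and encode 872 and 879 residues. The group III genes encode 912 (Grm4), 915 (Grm7) and 908 residues (Grm8). Grm4 lies at chr17:27425904-27513397 on the minus strand with 11 exons, Grm7 at chr6:110645598-111567230 on the plus strand with 10 exons, and Grm8 at chr6:27275121-28134421 on the minus strand with 11 exons. The 5′ UTRs were 974 nt in Grm4, 718 nt in Grm5, 424 nt in Grm8, 364 nt in Grm3, 270 nt in Grm7 and 220 nt in Grm2, against a median of 162 nt over 17004 transcripts. An ATG lay upstream of the coding sequence (CDS) 9 times in Grm5, 5 times each in Grm4 and Grm8, and 3 times in Grm3, while the 5′ UTRs of Grm2 and Grm7 held 0. No annotated gene overlapped an exon of the 6. None of their coding windows of 28 nt, about the length of an RPF, recurred in the coding sequence of another of the 6, so exact reads of that length were unique among them.

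Grm5 was the most abundant receptor mRNA in 12 of 12 RNA-seq libraries when levels were set per length, as reads per kb of counted CDS and per 1000000 reads on genes (RPKM). Its share of the summed RPKM of the 6 genes ran from 33.8% in embryonic hippocampus to 65.8% in the culture with the miR-155 virus. The lead was not separated from Grm3 in adult cortex, where the counting intervals of both genes overlapped. The plot of levels by library shows Grm5 and Grm7 above the group II and other group III genes in most cultures, and a different order in tissue.

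**Figure D1:**
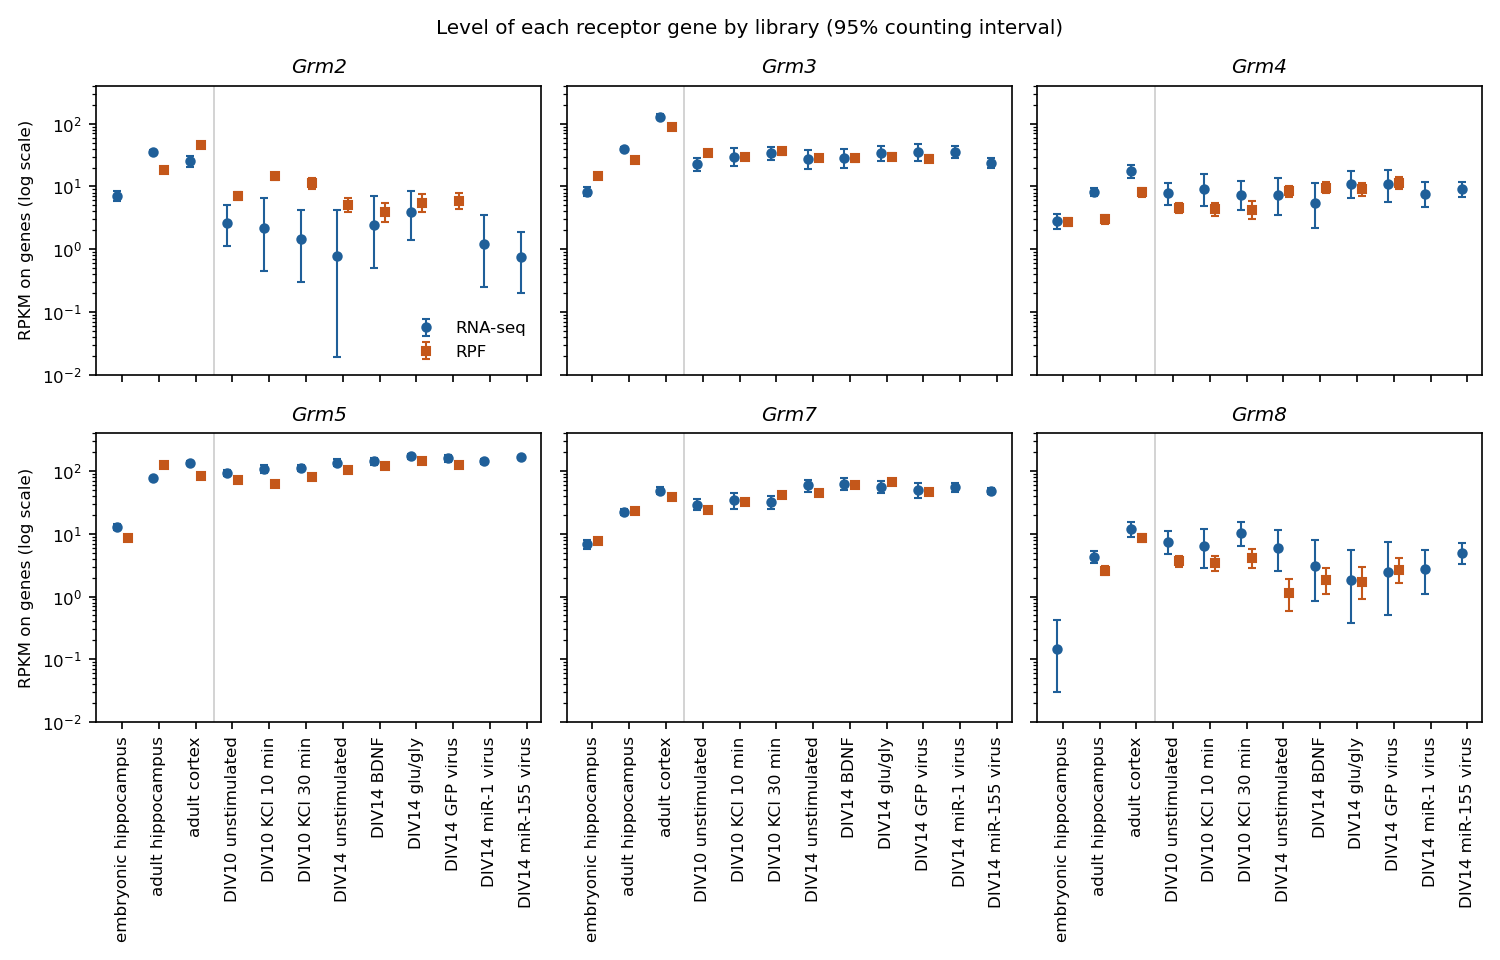
RPKM of each receptor gene (log axis, 1 panel per gene) in each library with a group, for RNA-seq and for RPFs, with bars for the 95% counting interval. Grm5 lies between 92.9 and 172 RPKM in the RNA-seq of the 9 cultures and at 12.9 in embryonic hippocampus.

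Grm5 mRNA stood at 12.9 RPKM in embryonic hippocampus, 76.3 in adult hippocampus and 136 in adult cortex. Over the 9 cultures it had a lowest value of 92.9, a median of 143 and a highest value of 172. By read count, not set per length, Grm5 lay above at least 94.9% of genes in each RNA-seq library outside the embryonic tissue. In embryonic hippocampus it lay above 65.3%. Its CDS was longer than that of 91.6% of genes. Its RPFs were 8.67 RPKM in embryonic hippocampus, 124 in adult hippocampus and 83.3 in adult cortex, and from 63.3 to 143 with a median of 104 in the 7 cultures with RPF data. By RPFs Grm5 was the highest of the 6 genes in each of these libraries apart from embryonic hippocampus, where Grm3 led, and adult cortex, where the intervals of Grm3 and Grm5 overlapped.

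The group II genes differed in where they were found. Grm2 stood at 7.04 RPKM in embryonic hippocampus, 35.3 in adult hippocampus and 25.3 in adult cortex, whereas the 8 cultures in which it was listed held only 1 to 8 reads each and 0.737 to 3.88 RPKM. Culture RPFs of Grm2 were more numerous, 37 to 205 per library, with 3.90 to 14.5 RPKM, against 18.2 in adult hippocampus and 46.1 in adult cortex. Grm3 stood at 8.28 RPKM of mRNA in embryonic hippocampus, 39.2 in adult hippocampus and 130 in adult cortex, and ran from 22.7 to 35.5 with a median of 29.8 in the 9 cultures. Its RPFs were 14.5 RPKM in embryonic hippocampus, 26.5 in adult hippocampus and 88.1 in adult cortex, with 27.9 to 36.2 in cultures. The adult cortex library was above each culture for both group II genes, in both assays.

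Among the group III genes, Grm7 was the most abundant in each library of both assays. Its mRNA stood at 6.84 RPKM in embryonic hippocampus, 22.4 in adult hippocampus and 48.8 in adult cortex, and at 29.3 to 62.6 with a median of 49.6 in the 9 cultures. Grm4 stood at 2.80, 8.17 and 17.4 RPKM in the same 3 tissues and at 5.43 to 11.1 in the cultures. Grm8 was scarce, with 3 reads in embryonic hippocampus, 84 in adult hippocampus (4.31 RPKM), 54 in adult cortex (11.8 RPKM) and 3 to 28 in the cultures (1.86 to 10.2 RPKM). The order of some neighbouring genes was within counting error, and Grm4 and Grm8 could not be ordered in 8 of the 9 cultures.

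The first comparison asked how the receptors differed between embryonic and adult hippocampus. By RNA-seq 6 of 6 receptor genes were at least 2-fold higher in the adult, beside 23.2% of 13313 genes higher and 27% lower by that much. Grm5 was 5.94-fold higher (95% interval 5.30 to 6.67), Grm2 5.02-fold (4.18 to 6.08) and Grm3 4.73-fold (3.99 to 5.63). The group III genes Grm7 and Grm4 were 3.27-fold (2.70 to 3.97) and 2.91-fold (2.15 to 4.01) higher. With the authors' RPM, which moved all log2 ratios by -0.32, or median-of-ratios scaling, which moved them by 0.24, the count was again 6 of 6. For Grm8 the ratio was 29.6 with an interval of 9.78 to 146, since the embryonic library held 3 reads. The sums of astrocyte markers (3384 against 756 CPM), of 7 oligodendrocyte markers (1771 against 36.0) and of progenitor markers (74 against 2608) moved between the same libraries, and their part in these ratios was not tested.

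RPFs gave another picture for the same tissues. The RPFs of Grm5 were 14.2-fold higher in the adult (13.2 to 15.4), those of Grm7 2.96-fold (2.67 to 3.29), those of Grm3 1.83-fold (1.68 to 1.99) and those of Grm4 1.09-fold (0.878 to 1.35), beside 24.9% of genes at least 2-fold higher and 33.6% lower. Only Grm5 had a larger ratio in RPFs than in RNA-seq, and the intervals for Grm3, Grm4 and Grm5 did not overlap between assays. Grm2 and Grm8 were not listed among the RPFs of the embryonic hippocampus, although Grm2 had 139 RNA-seq reads there. In that library 68 of 8870 genes with at least 100 RNA-seq reads were not listed, against 20 of 8452 in adult hippocampus and 0 in the others, so no ratio was computed for these genes.

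**Figure D2:**
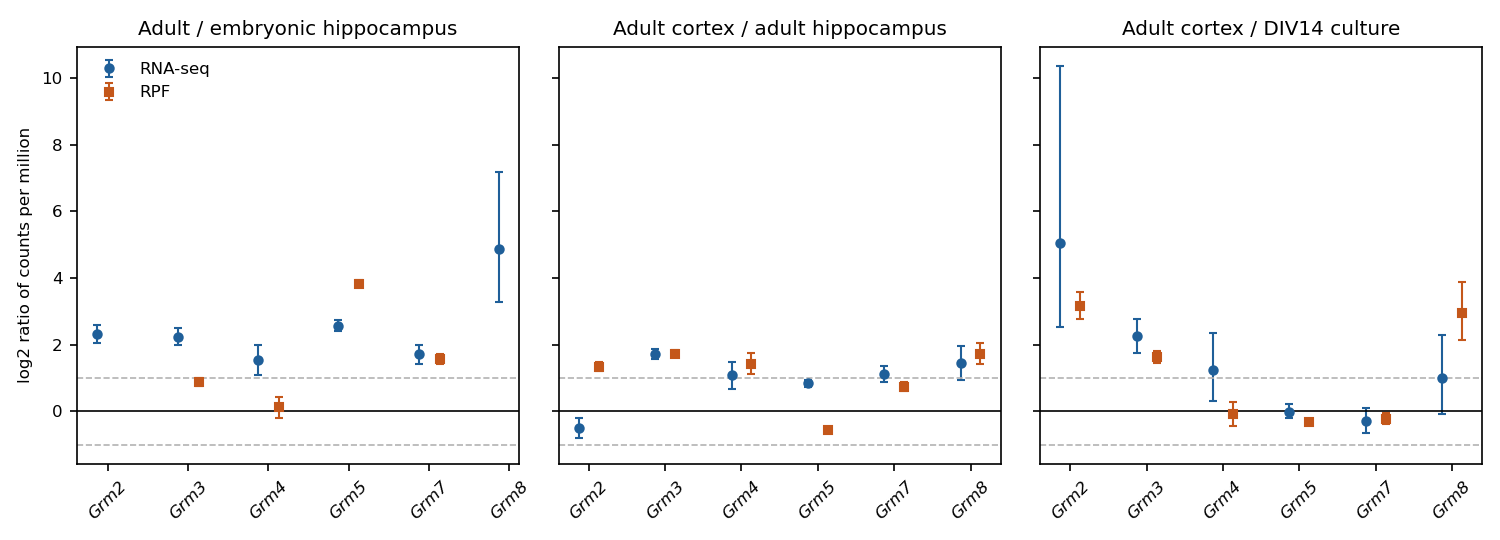
Log2 ratios between tissues for each receptor gene in RNA-seq and RPFs: adult over embryonic hippocampus, adult cortex over adult hippocampus, and adult cortex over the unstimulated DIV14 culture, with 95% counting intervals. In the first panel Grm5 has the highest RPF ratio (14.2-fold) and Grm4 the lowest (1.09-fold).

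Translational efficiency (TE), the log2 ratio of RPFs to RNA-seq in RPM, the authors' reads scaled to their own larger total, put these differences per mRNA. The study's cutoff of 10 RPM in RNA-seq was met by 31 of the receptor values, and values under it are named as such here. In embryonic hippocampus Grm3 had a TE of 1.59, higher than 88.7% of genes, Grm7 0.98 (64.2%), Grm4 0.75 (53.7%) and Grm5 0.22 (32.9%), with all but Grm5 under the cutoff at 58 to 165 reads. In adult hippocampus Grm5 had 1.76 (85.1%), Grm7 1.11 (59.6%), Grm3 0.49 (35.6%), Grm8 0.33 (30.6%, under the cutoff), Grm2 0.10 (24.5%) and Grm4 -0.39 (14.3%, under the cutoff). Grm5 thus stood lowest of the measured receptors in the embryo and highest in the adult.

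Relative to the median gene of each tissue, the TE of Grm5 was 1.33 log2 units higher in adult than in embryonic hippocampus (counting SE 0.10), a 2.52-fold difference. That of Grm3 was lower, with a log2 difference of -1.30 (SE 0.14), and so was that of Grm4, with -1.35 (SE 0.27). That of Grm7 differed by -0.07 (SE 0.16), within its counting error. A TE at least 2-fold higher in the adult was found for 19.5% of 10666 genes and one at least 2-fold lower for 18%, and of the 4 receptor genes measured 1 was past the higher limit and 2 past the lower. The differences of Grm3, Grm4 and Grm7 rested on embryonic values under the 10 RPM cutoff, and the adult value of Grm4 was under it too.

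Adult cortex and adult hippocampus differed mostly in the same direction across the genes. By RNA-seq Grm3 was 3.31-fold higher in cortex (2.96 to 3.69), Grm8 2.74-fold (1.91 to 3.90), Grm7 2.18-fold (1.85 to 2.57), Grm4 2.13-fold (1.61 to 2.80) and Grm5 1.79-fold (1.65 to 1.94), and Grm2 was at 0.715 of the hippocampal level (0.580 to 0.876). At least 2-fold higher were thus 4 of 6 receptor genes, beside 10.3% of 12642 genes, with 12.6% lower. The count depended on the library total, as with the authors' RPM, which moved all log2 ratios of this comparison by -0.61, 1 of 6 was at least 2-fold higher (Grm3) and 1 at least 2-fold lower (Grm2). Tail tags of the same tissues put Grm5 lower in cortex, at a ratio of 0.662 (0.510 to 0.866), in contrast to its RNA-seq. Cortex tails were sequenced by TAIL-seq and hippocampal tails by PAL-seq v2, so tissue and tail method cannot be told apart in that ratio. By RPFs, scaled to reads on genes, Grm3 and Grm8 were each 3.33-fold higher in cortex, Grm4 2.69-fold, Grm2 2.54-fold and Grm7 1.67-fold, whereas Grm5 stood at 0.674 of the hippocampal level, beside 18.7% of genes higher and 12.3% lower.

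Grm2 and Grm5 held opposite places in TE in these tissues. The TE of Grm2 in adult cortex was 2.46, higher than 90.6% of genes, with 111 RNA-seq reads and 888 RPFs behind it, against 0.10 in hippocampus with 661 reads and 1010 RPFs. The TE of Grm5 was 0.88 in cortex (33.4%) against 1.76 in hippocampus (85.1%). Relative to the median gene the difference was 1.93 (counting SE 0.16) for Grm2 and -1.31 (SE 0.07) for Grm5. Those of Grm3 (0.11), Grm8 (0.38), Grm4 (0.43) and Grm7 (-0.29) were smaller than 2-fold, beside 17.8% of 10355 genes higher and 8.66% lower by at least that much. Grm8 was under the 10 RPM cutoff in both tissues, and Grm4 in hippocampus. Not set against the median gene, the difference was 2.36 for Grm2 and -0.88 for Grm5, the latter under 2-fold.

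The cultures were set against adult cortex, the tissue they were taken from at an earlier age. In RNA-seq 4 of 6 receptor genes were at least 2-fold higher in cortex than in the unstimulated DIV14 culture, beside 18.8% of 10743 genes, with 19.4% lower. Grm3 was 4.75-fold higher (3.39 to 6.85), Grm4 2.38-fold (1.23 to 5.16) and Grm8 2.01-fold (0.95 to 4.89), and the ratio of Grm2 was 33.0 (5.81 to 1317) on 1 read in the culture. Grm5 and Grm7 were at 0.997 (0.865 to 1.15) and 0.827 (0.639 to 1.08) of the culture, and under median-of-ratios scaling, which moved log2 ratios by 0.40, both lay above 1, at log2 ratios of 0.40 and 0.13. RPFs gave ratios of 9.01 for Grm2 (6.89 to 12.0), 7.70 for Grm8 (4.38 to 14.7) and 3.08 for Grm3, and of 0.946 for Grm4, 0.856 for Grm7 and 0.80 for Grm5, beside 12.5% of genes at least 2-fold higher and 12.3% lower. By both assays the group II genes were thus higher in cortex, and Grm5 and Grm7 were not. The astrocyte marker sum was 3812 CPM in cortex and 2227 in the culture, but the single markers disagreed. Of 8 markers, 2 were at least 2-fold higher in cortex and 3 lower, with a median log2 ratio of -0.36. They ran from -1.22 for Aldh1l1 to 4.05 for Slc1a2. The part of astrocytes in the ratio of Grm3 was not tested.

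Within the 7 cultures with both assays, percentile ranges of TE were narrower for Grm5, Grm7 and Grm3 than for Grm4 and Grm8. Grm5 had a higher TE than 39.1% to 62.3% of genes, Grm7 than 55.1% to 79.0% and Grm3 than 59.0% to 85.8%. Grm4 stood above 29.0% to 90.6% of genes on 7 to 25 RNA-seq reads, and Grm8 above 2.5% to 74.7% on 3 to 24. Both were under the cutoff in each culture. Grm2 stood above 85.2% to 99.8% of genes in 6 cultures, but on 1 to 8 RNA-seq reads against 37 to 205 RPFs, under the cutoff in each.

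The unstimulated cultures of different age also differed. Grm7 mRNA was 2.02-fold higher at DIV14 than at DIV10 (1.48 to 2.74), the 1 receptor gene of 5 tested past 2-fold, beside 2.95% of 10655 genes higher and 11.1% lower. Its RPFs were 1.90-fold higher (1.69 to 2.14), or 2.20-fold with the authors' RPM. Grm5 was 1.47-fold higher in RNA-seq (1.25 to 1.73) and 1.46-fold in RPFs (1.37 to 1.56). RPFs of Grm8 were lower at DIV14, at 0.305 of the DIV10 level (0.157 to 0.548) on 13 against 93 RPFs, beside 4.5% of genes at least 2-fold higher and 10.7% lower. The DIV10 and DIV14 cultures belonged to different stimulation experiments, and age and experiment cannot be told apart.

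After each stimulus the measured receptor mRNAs lay within 2-fold of their control. No receptor gene with at least 10 reads was at least 2-fold higher or lower in RNA-seq after BDNF (0 of 4, beside 2.52% of 8496 genes higher and 4.53% lower), glu/gly (0 of 4, beside 4.35% and 4.38%), 10 min of KCl (0 of 5, beside 1.33% and 4.75%) or 30 min of KCl (0 of 5, beside 2.78% and 10.3%). BDNF and glu/gly share 1 unstimulated culture, and both times of KCl share another. Grm5 mRNA was 1.05-fold the control with BDNF (0.875 to 1.26), 1.25-fold with glu/gly (1.07 to 1.48), 1.16-fold after 10 min of KCl and 1.22-fold after 30 min (1.05 to 1.42). Grm3 was 1.03-fold, 1.25-fold, 1.31-fold and 1.5-fold the control in the same order, the last with an interval of 1.07 to 2.12. With the authors' RPM, which moved all log2 mRNA ratios of the 30 min comparison by -0.50, those of Grm5, Grm7 and Grm8 changed sign, Grm5 from 0.29 to -0.21. Summed CPM of 9 immediate-early genes were 143 in the unstimulated DIV14 culture, 2135 with BDNF and 1041 with glu/gly, and 82.3 in the unstimulated DIV10 culture, 181 after 10 min and 694 after 30 min of KCl.

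Grm7 RPFs were above control after each stimulus. Its RPFs stood at 45.2 RPKM in the unstimulated DIV14 culture, 59.4 with BDNF and 66.0 with glu/gly, and at 23.8 RPKM in the unstimulated DIV10 culture, 32.5 after 10 min and 41.6 after 30 min of KCl. The ratios to control were 1.31 (1.17 to 1.48), 1.46 (1.29 to 1.65), 1.37 (1.21 to 1.54) and 1.75 (1.52 to 2.00), with each interval above 1. Its mRNA ratios were 1.06, 0.95, 1.17 and 1.10, and the intervals of all 4 held 1. Among all genes these RPF ratios were higher than 92.7%, 95.3%, 90.3% and 96.8%. Relative to the median gene, the TE of Grm7 differed from control by 0.31 log2 units with BDNF (counting SE 0.24), 0.55 with glu/gly (SE 0.24), 0.31 after 10 min of KCl (SE 0.27) and 0.84 after 30 min (SE 0.25). The last was under 2-fold, beside 8.3% of 9132 genes past 2-fold higher and 4.91% lower. Not set against the median gene, it was 1.10 log2 units and past 2-fold.

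The RPFs of Grm5 had intervals apart from 1 after each stimulus too, on both sides of it. Grm5 RPFs were 1.17-fold the control with BDNF (1.09 to 1.26), 1.38-fold with glu/gly (1.28 to 1.48), 0.890-fold after 10 min of KCl (0.830 to 0.953) and 1.13-fold after 30 min (1.04 to 1.22). Grm2 RPFs were at 7.11 RPKM in the unstimulated DIV10 culture, 14.5 after 10 min and 11.2 after 30 min of KCl, ratios of 2.04 (1.66 to 2.51) and 1.58 (1.21 to 2.06), while BDNF gave 0.761 and glu/gly 1.08 with intervals that held 1. The 10 min value of Grm2 was the 1 RPF ratio of a receptor gene past 2-fold after any of these stimuli, beside 1.62% of 12937 genes higher and 7.06% lower, and with the authors' RPM it was 1.79 and no longer past 2-fold. The shares of genes past 2-fold in RPFs were 1.17% higher and 4.08% lower with BDNF, 1.04% and 3.99% with glu/gly, and 1.72% and 6.83% after 30 min of KCl. The RNA-seq of the KCl experiment held 3 to 8 Grm2 reads, under the cutoff for a TE.

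The viral cultures asked whether an ectopic microRNA changed the receptors. Mature miR-155, read from the genome at chr16:84714143-84714165 on the plus strand (GRCm38.p6, RefSeq), is shown with its seed, bases 2 to 8, in capitals, because pairing of that seed to a 3′ UTR is how its targets are predicted.
miR-155: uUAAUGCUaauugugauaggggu
The sites searched on the mRNA strand were AGCATTAA, the match to the whole seed followed by A, and the 7-letter matches AGCATTA and GCATTAA, which lie within it. The RefSeq 3′ UTRs of the 6 receptor genes held none of these. At least 1 was found in 11.8% of 16888 3′ UTRs, and among UTRs at most 25% longer or 20% shorter than that of the gene in 35.5% for Grm5 and in 4.05% to 9.74% for the other genes. The match says only which letters are in these windows.

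With miR-155, mRNA of Grm3 was 24.0 RPKM against 35.3 with GFP alone, a ratio of 0.678 (0.474 to 0.988), and Grm5 was 167 against 159, a ratio of 1.05 (0.917 to 1.21). The ratios of Grm4, Grm7 and Grm8 were 0.833, 0.973 and 1.98, the last on 28 against 3 reads with an interval of 0.612 to 10.2. None of 5 receptor genes was past 2-fold, beside 6.05% of 10791 genes higher and 3.51% lower. With miR-1 the ratios were 0.903 for Grm5 (log2 ratio -0.15, or 0.13 with the authors' RPM), 1.00 for Grm3, 1.11 for Grm7 and 0.712 for Grm4, and 0 of 4 were past 2-fold, beside 4.48% and 3.86% of genes. Both miRNA cultures share the GFP culture. Between GFP alone and no virus, 0 of 4 receptor genes were past 2-fold in RNA-seq, beside 2.77% of genes higher and 5.74% lower, and 1 of 6 in RPFs, Grm8 at 2.38-fold (1.14 to 5.16) on 21 against 13 RPFs, beside 1.35% of genes higher and 5.9% lower. By the text of the study, cultures were prepared in more than 1 batch, and which cultures shared a batch is not stated. Virus and batch cannot be told apart in this comparison.

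Light exposure of dark-kept mice was the comparison with replicates. Levels there are tail-sequencing tags per 1000000 tags on genes (CPM), which are read from the 3′ end of the mRNA and are not set per length. The means of the dark mice were 251 CPM for Grm5, 87.7 for Grm7, 75.5 for Grm3 and 64.6 for Grm2. They were 18.9 for Grm8 and 17.8 for Grm4. Tags of Grm5 were 250, 269, 232 and 253 CPM in the 4 dark mice and 229, 235, 219 and 244 in the 4 light mice. The ranges overlapped, and the difference (log2 fold change -0.09 ± 0.09 SE, n = 4 per group) did not pass edgeR's quasi-likelihood test (adjusted p = 0.84). None of the 6 receptor genes passed that test, beside 1.21% of 9554 genes that rose and 0.126% that fell, and for 0 of 6 were the groups apart, beside 2.63% and 3.13%.

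**Figure D3:**
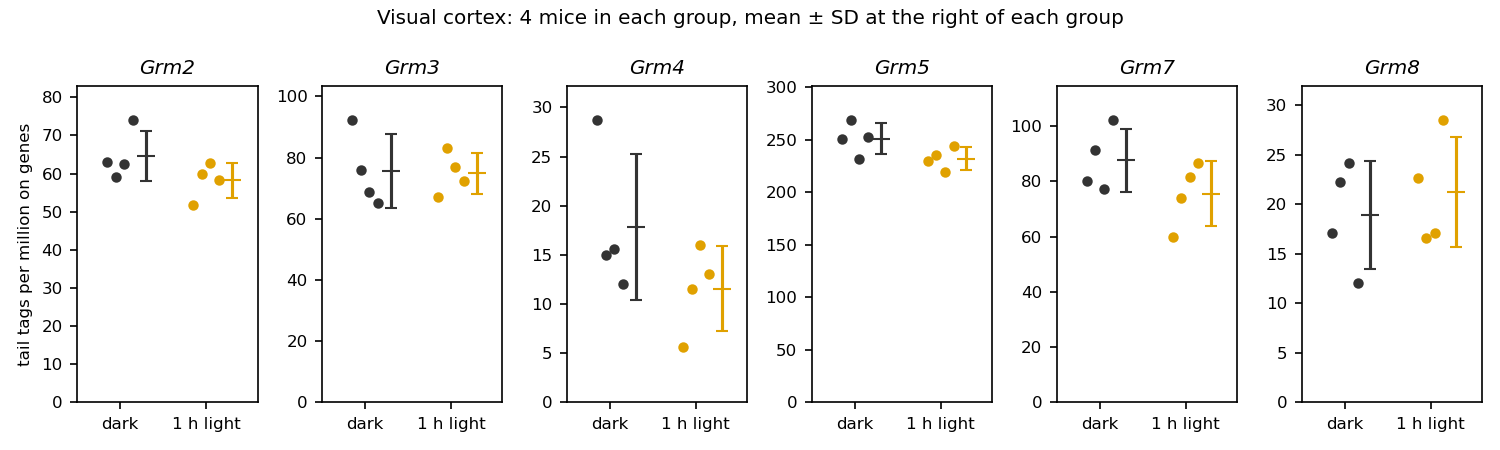
Tail-sequencing tags (CPM) for each receptor gene in visual cortex of 4 dark and 4 light mice, each point a mouse, with mean and SD. The groups overlap in all 6 panels, and dark mouse 1 is the highest point for Grm3 (92.3) and Grm4 (28.7).

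For the group II genes, tags of Grm2 were 62.9, 59.0, 62.5 and 74.1 CPM in the dark and 51.9, 60.0, 62.7 and 58.2 in the light, and those of Grm3 were 92.3, 75.8, 68.7 and 65.2 in the dark and 67.3, 83.0, 77.0 and 72.5 in the light. The log2 fold changes were -0.10 ± 0.13 SE for Grm2 and 0.01 ± 0.13 for Grm3 (adjusted p = 0.89 and 0.99 in edgeR). Neither group of mice lay apart for these genes.

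For the group III genes, tags of Grm7 were 80.0, 91.2, 77.3 and 102 CPM in the dark and 60.0, 74.1, 81.5 and 86.8 in the light. Those of Grm4 were 28.7, 15, 15.6 and 12.1 against 5.67, 11.5, 16.0 and 13.1, and those of Grm8 were 17.1, 22.2, 24.2 and 12.1 against 22.7, 16.6, 17.1 and 28.5. The log2 fold changes were -0.18 ± 0.13 SE for Grm7, -0.55 ± 0.32 for Grm4 and 0.15 ± 0.25 for Grm8 (adjusted p = 0.74, 0.63 and 0.92 in edgeR). Grm4 had its lowest value in a light mouse and its highest in dark mouse 1, and without that mouse its log2 fold change was -0.25. The same mouse had the highest sum of astrocyte markers (5032 CPM, against 3672 to 4160 in the others), whose part in the values of Grm3 and Grm4 was not tested. A two-sided exact permutation test over the mice, whose smallest p is 0.0286, gave p = 0.0857 for Grm5, its lowest among the 6 genes, and 0.343 after Benjamini-Hochberg adjustment over them. The 9 immediate-early genes all rose in the same mice.

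Tail lengths were read for receptor genes with at least 50 tags in a library, which left Grm2, Grm3, Grm5 and Grm7 in all 8 visual cortex samples. In nt, Grm5 tails averaged 95.9, 96.4, 82.1 and 80.6 in the dark and 86.4, 93.5, 93.6 and 83.9 in the light. Tails of Grm7 averaged 79.3, 72.9, 62.0 and 72.6 nt in the dark and 71.6, 94.1, 94.4 and 72.4 nt in the light. The light mice were 0.57 nt longer for Grm5, 11.5 nt for Grm7 and 7.42 nt for Grm3, and 1.51 nt shorter for Grm2, each with an SE of 6.68 nt, the same for all genes since limma estimated 1 shared variance. None passed limma's test (adjusted p = 0.999 for each), beside 0.231% of 4321 genes with longer tails and 0% with shorter. Set against the median gene of each sample the differences were 7.44 nt for Grm7 (adjusted p = 0.48 in limma) and -5.53 nt for Grm2 (adjusted p = 0.437), and these did not pass either.

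**Figure D4:**
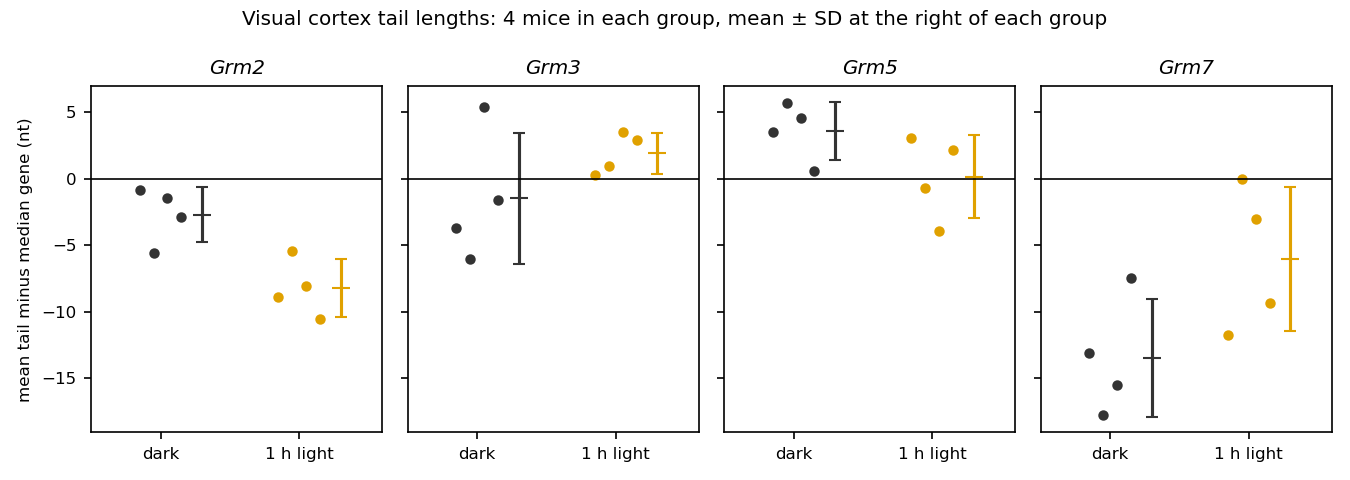
Mean tail length of Grm2, Grm3, Grm5 and Grm7 minus that of the median gene in the same library (nt), for libraries with at least 50 tags of the gene. The median gene is that of the 4321 genes with at least 50 tags in all 8 visual cortex samples. Grm7 and Grm2 each lie below 0 in 8 of 8 mice, with Grm7 at -0.01 in light mouse 2.

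Grm7 had short tails relative to the median gene in most samples. The median gene here is that of all genes with at least 50 tags in the same library. Grm7 tails were shorter than it in 7 of 8 visual cortex samples, and the exception, light mouse 2, was 0.05 nt above it. Against the 4321 genes of the plot, which all 8 samples share, that mouse was at -0.01 nt. Grm7 tails were also below the median in 9 of 9 cultures, where they averaged 81.2 to 105 nt on 15 to 68 tags, with 3 of these cultures past 50 tags. Grm2 tails were below the median gene in 8 of 8 mice, at 71.2 to 91.6 nt. On 2 to 6 tags each, those of the cultures were below it in 7 and above it in 2, and in adult cortex they were 4.78 nt above it on 16 tags.

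Grm5 tails lay on both sides of the median gene. They averaged 97.4 to 117 nt in the 9 cultures, with 117 nt in the miR-1 culture (92.4% of genes shorter), 103 nt with GFP alone and 97.4 nt with miR-155, on 80, 85 and 113 tags. In adult cortex Grm5 averaged 95.5 nt and Grm3 92.3 nt, longer than 36.6% and 25.8% of genes. In adult hippocampus, whose file appears to hold medians and cannot be compared in nt with the other samples, Grm5 stood at 39.0 nt on 91 tags against 54.0 nt for the median gene. Grm4 never reached 50 tags in the cultures, where its 9 to 42 tags averaged 124 to 147 nt, above the median gene in 9 of 9.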

How the data were processed

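Levels, translation and tails of the 6 genes were taken from 44 samples. The deposited RNA-seq and RPF values are read counts and RPM per gene, which the authors made from reads in each gene's CDS past the initial 50 nt. The deposited TE values are log2 ratios computed by the authors and served as an alternative. Tail files hold the authors' tag counts and, per gene, a tail length whose values are a score in nt from TAIL-seq or PAL-seq v2. In both hippocampi these are multiples of 0.5 nt and were taken as medians. By the text of the study, PAL-seq v2 was used for visual cortex and both hippocampi, and TAIL-seq for the cultures and adult cortex. The submitters' processing notes name STAR 2.4.2, bedtools and mm10. The authors' combined light table was not used. From the counts, RPKM and ratios were scaled to the reads on genes for genes with at least 10 reads in 1 of both libraries. Light was tested with edgeR 4.0.16 (quasi-likelihood, TMM) on tags and limma 3.58.1 on tails of genes with at least 50 tags in each sample, each with 4 mice per group, at an adjusted p under 0.05. The text of the study gives the 8 samples as separate mice. Numbers 1 to 4 did not pair them. Both fits were tested on simulated data. DESeq2 1.42.0, other totals, filters, tail tags and leaving out each sample were alternatives. Members, gene lists and the rule for other named genes (the 3 nearest by correlation over 12 RNA-seq libraries, the 2 highest and 2 lowest of each pathway list between the hippocampi, and those called with light) were chosen with earlier results of these data known. Some genes that this rule names are not reported here. For 2 RPF libraries of the miRNA cultures, title and sample code contradict each other, and they entered no comparison.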

Additional observations from a re-analysis of the deposited data

Results flagged for a closer look

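Tails of Grm8 in the 4 light mice held 1 value far from the others. In light mouse 3 they averaged 107.8 nt on 30 tags, and the gap to the nearest mouse, at 78.1 nt, was 0.882 of the range of the group, above Dixon's 95% critical value for 4 samples. This was 1 of 36 groups of 4 examined, where chance marks about 1 in 20, and 30 tags lie under the minimum of 50 used for tails.

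The 2 RPF libraries whose labels contradict each other also held the receptor genes, and they are given as values with no group. In library 1, with 817114 RPFs on genes, the RPF levels were 6.67 RPKM for Grm2, 34.0 for Grm3, 5.46 for Grm4, 74.9 for Grm5, 49.4 for Grm7 and 3.2 for Grm8. In library 2, with 6428048 RPFs, the levels were 4.97 RPKM for Grm2, 22.2 for Grm3, 10.6 for Grm4, 138.6 for Grm5, 50.2 for Grm7 and 2.03 for Grm8.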

How the results depend on the processing

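Counts of receptor genes past 2-fold, and the count of RNA-seq libraries led by Grm5, were within 1.5 times the reported count in 40 of 45 recomputations. With tail tags in place of RNA-seq, 1 receptor gene of 2 testable (against 6 of 6) was past 2-fold between the hippocampi (beside 32.4% of genes higher) and 2 (against 4) between adult cortex and hippocampus (beside 19.1% higher), where the authors' RPM also gave 2. With median-of-ratios scaling the count was 0 (against 1) between the unstimulated DIV14 and DIV10 cultures and 1 (against 0) for miR-155 over GFP. Tail tags turned the log2 ratio of Grm7 in cortex over hippocampus to -0.20, of Grm5 to -0.59 and of Grm2 to 0.24, and that of Grm4 in cortex over the DIV14 culture to -0.54, which left 3 genes past 2-fold there in place of 4, and between the DIV14 and DIV10 cultures Grm5 (2.11-fold) was past 2-fold in place of Grm7 (1.88-fold). The cause was not tested, and tail tags of adult cortex and adult hippocampus came from different tail-sequencing methods. The number of receptor values with a TE, 31, became 45 with a minimum of 10 reads in place of 10 RPM. The median TE of all genes differed between conditions, and setting TE differences against it was chosen after the data were seen, as was the authors' RPM for RPF ratios.

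With light, 128 genes passed edgeR, 126 passed DESeq2, 192 without a filter, 113 with the replicate block and 100 to 150 with 1 sample left out. For tails 10 genes passed limma, against 1 on log2 length, 3 with at least 200 tags, 3 relative to the sample median, 1 with the replicate block and 1 to 21 with 1 sample left out, 21 without light mouse 4 and 19 without dark mouse 1. No receptor gene passed in any of these. The sign was not stable where the change was near 0: Grm3 tags had a log2 change of -0.014 with library totals and -0.011 in the permutation test, and -0.036 to 0.11 with 1 sample left out, and Grm8 tags -0.028 to 0.29. Grm5 tails differed by -3.44 nt relative to the sample median and by -2.14 to 3.12 nt with 1 sample left out, and Grm2 tails by -4.34 to 1.75 nt. Depth limits Grm2 and Grm8 in cultures, with 1 to 8 and 3 to 28 RNA-seq reads.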

Other observations

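The signalling partners of the receptors were read between the hippocampi from lists chosen with earlier results of these data known, for which no test was run. By RNA-seq, 11 of 18 genes of the Gq arm were at least 2-fold higher in the adult and 1 was lower, with log2 ratios of 3.86 for Dgkb, a diacylglycerol kinase, and -1.32 for the IP3 receptor Itpr3. Of the Gi/o arm 11 of 19 were higher and 2 lower, from the GIRK channel subunits Kcnj9 (7.46) and Kcnj6 (6.25) to Gnb4 (-1.59) and Gnai3 (-2.48), which encode G-protein subunits. Among receptor binders and scaffolds 14 of 21 were higher and 0 lower, with Prrt1 (4.58) and Ncdn (4.55) highest and Grip1 (-0.77) and Siah1a (-0.44) lowest. Of 13 genes for desensitisation and RGS proteins 7 were higher and 0 lower, with Rgs14 (8.30) and Rgs17 (3.77) highest and Grk6 (-0.46) and Rgs20 (-0.11) lowest. Of 14 genes for glutamate supply and clearance 9 were higher and 4 lower, with Gls2 (5.79), a glutaminase, and the vesicular transporter Slc17a7 (4.94) highest and Slc38a2 (-1.78) and the vesicular transporter Slc17a6 (-1.75) lowest. Medians of the 5 lists ran from 1.07 to 1.91, beside -0.22 for all genes, and 23.2% of all genes were higher and 27% lower.

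In visual cortex 4 genes of these lists rose with light in edgeR's test. They were Rgs4 (log2 fold change 0.82 ± 0.11 SE, adjusted p = 2.5e-05) and Rgs2 (0.81 ± 0.14, adjusted p = 0.0014), of 12 tested, which encode activators of G-protein GTPase activity. The receptor binder Grasp rose by 1.65 ± 0.25 (adjusted p = 0.00016), 1 of 15 tested, and Gnai3, a Gi subunit, by 0.69 ± 0.17 (adjusted p = 0.037), 1 of 16. In the Gq arm 0 of 11 passed and among glutamate supply and clearance 0 of 13, and no tail in these 5 lists passed limma's test. Over all genes 1.21% of 9554 rose.

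Genes whose RNA-seq pattern was among those most like that of each receptor were read as Pearson's r of log2(CPM + 1) over 12 libraries that share tissues, cultures and experiments, as a description. For Grm5 they were Kcna4 (r = 0.994), Cntn1 (0.992) and Kcnj4 (0.991), for Grm7 Scg5 (0.987) and Arl8b (0.980), for Grm3 Rims1 (0.965), Cntn4 (0.954) and Camk2g (0.946), and for Grm4 Pigg (0.924), Cntn3 (0.923) and Atxn1 (0.915). Grm5 and Grm7 had r = 0.963 with each other. Grm2 and Grm8 had at least 10 reads in too few libraries.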
